A study of Drosophila melanogaster with 6 samples.

Results

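The genes described here are the cuticle protein genes of Drosophila melanogaster, in embryos sampled long before a cuticle is made. They were taken by gene symbol, and the rule uses no measured value: a gene belonged to the set when a probe set with exactly 1 platform symbol began with Cpr, Lcp, Ccp84, Twdl, Acp or Edg followed by the usual locus code. This gave 118 genes of the 11982 with such a probe set. They comprised 66 Cpr genes, 24 Tweedle (Twdl) genes, 7 larval cuticle protein (Lcp) genes, 3 Ccp84A genes, 3 Edg genes, the adult cuticle protein gene Acp65Aa and 14 other Acp genes. The last 14 go against the name of the set, because in Drosophila they encode peptides of the male accessory gland, such as Acp26Aa (ovulin), and not cuticle proteins. The 104 genes of the cuticle families and these 14 are therefore given apart wherever it matters. A further 24 RefSeq genes have symbols of the same form but no probe set with that single symbol, among them Lcp1 to Lcp4, and were not analysed here.

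The insect cuticle is an extracellular coat of chitin fibres and proteins that the epidermis secretes at its apical face, and the tracheal and foregut cells make a related lining. Most of its proteins belong to large families. Cpr, Lcp and Ccp84A proteins mostly carry the Rebers-Riddiford domain, which binds chitin. Tweedle proteins are a separate insect family, named after TwdlD, in which dominant mutations change the shape of the body. The Edg genes were found as ecdysone-dependent genes of the imaginal disc. In the embryo the first larval cuticle is laid down late, after the epidermis and tracheae have formed, whereas the embryos studied were mostly still dividing as a syncytium of nuclei.

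Total RNA was hybridised to 6 Affymetrix Drosophila Genome 2 arrays. The mutant group (zld embryos) held 3 samples of embryos from zld germ-line clones, which the series text writes as M- zld, so that the egg came from a mutant germ line; the labels do not describe the lesion, the way the clones were made or the father. The control group (yw embryos) held 3 samples of yw embryos. All 6 samples were collected at 1 to 2 h, and 90% of a stained portion of the embryos fell between nuclear cycles 8 and 13. Zelda (zld) is a zinc finger factor loaded into the egg that activates early zygotic genes. The zld probe set had signals of 263.1, 195.7 and 214.9 in zld embryos, against 1023.2, 1062.4 and 966.8 in yw embryos, which matches the labels.

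Each array gave 18769 signals outside the control probe sets, as arbitrary intensity units. The deposited values hold no detection calls, so a limit was taken from 27 control probe sets for Bacillus transcripts, which fly embryos lack. The limit was the 95th percentile of their 162 signals, 18.13, and their highest signal was 27.3. Signals of different probe sets depend on the probes as well as on the RNA, so levels are compared here between arrays and not between genes. The arrays did not behave alike in yw embryos. Replicates 1 and 2 stood apart from replicate 3 for many cuticle genes and for muscle genes, and results are given with and without them. The 95th percentile of the Bacillus signals themselves was 24.04 and 25.03 on yw replicates 1 and 2, against 15.91 on yw replicate 3 and 12.95 to 16.41 on the zld arrays.

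Between 23.7% and 24.6% of the set was above the limit on each zld array, against 28.0% to 49.2% on each yw array. In zld embryos 28, 29 and 28 of the 118 genes were above it, against 48, 58 and 33 in yw embryos. The share was 24.0% ± 0.489 in zld embryos and 39.3% ± 10.7 in yw embryos (SD, n = 3 each). The zld arrays were nearly identical in this count, while the yw arrays ranged more widely, with replicate 3 nearer to the zld arrays than to the other yw arrays. All 3 zld arrays were below all 3 yw arrays, and an exact two-sided permutation test over arrays gave p = 0.1, the smallest that 3 against 3 arrays allow. This order was not particular to the set. The 11864 other named genes had 58.1% to 59.8% above the limit on the zld arrays and 62.1% to 66.2% on the yw arrays. Chemosensory receptor genes had 14.5% to 18.2% against 20.0% to 29.1%, also with p = 0.1 by the permutation test. With each array held to its own Bacillus percentile, the counts for the set were 37, 42 and 31 in zld embryos. They were 39, 47 and 36 in yw embryos, so that the groups overlapped. By the mean of a group, 29 genes were above the limit in zld embryos and 52 in yw embryos, or 33 with yw replicate 3 alone. With each array's own limit required on all 3 arrays of a group, the counts were 26 in zld embryos and 21 in yw embryos, so the order of the groups turned. The highest of the 6 signals of a gene fell on yw replicate 2 for 50 of the 118 genes (42.4%), against 25.9% of all 11982 named genes, and on a zld array for 23. Fewer cells of a type and less RNA per cell cannot be told apart in whole embryos.

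**Figure D1:**
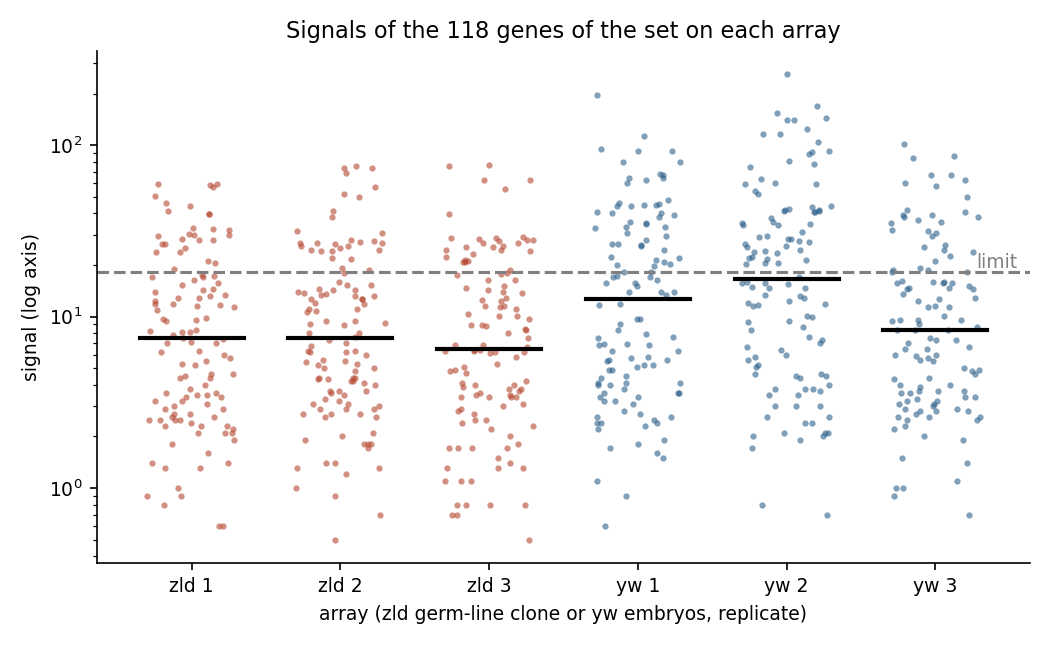
Signals of the 118 genes on each array, on a log axis. Each point is a gene, the black bar is the median of the array and the dashed line is the Bacillus limit of 18.13. Most points of every array lie under the limit, and the upper tail reaches 260 on yw replicate 2.

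Many genes of the set were below the limit throughout. None of the 6 arrays gave a signal above the limit for 52 of the 118 genes (44.1%), against 27.1% of the 11864 other named genes. This was 41 of the 104 cuticle family genes (39.4%) and 11 of the 14 accessory gland genes (78.6%). Chemosensory receptor genes, another class used by differentiated cells, had 58.8% of 165 genes without such a signal. Of the 66 remaining cuticle set genes, 19 were above the limit on all 6 arrays, 14 on yw replicates 1 and 2 and nowhere else, and 33 in other combinations. Every cuticle family but the single adult gene had members with no signal above the limit: 29 of 66 Cpr, 7 of 24 Tweedle, 3 of 7 Lcp, 1 of 3 Ccp84A and 1 of 3 Edg genes. Edg84A, a pupal cuticle protein gene, had 2.3, 1.8 and 1.3 in zld embryos and 4.1, 2.1 and 2.8 in yw embryos. At the limit itself, the means over 6 arrays were 18.8 for Cpr49Ad and 19.9 for Cpr35B just inside, and 17.5 for Cpr78Cb and 17.4 for Cpr30B just outside.

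**Figure D2:**
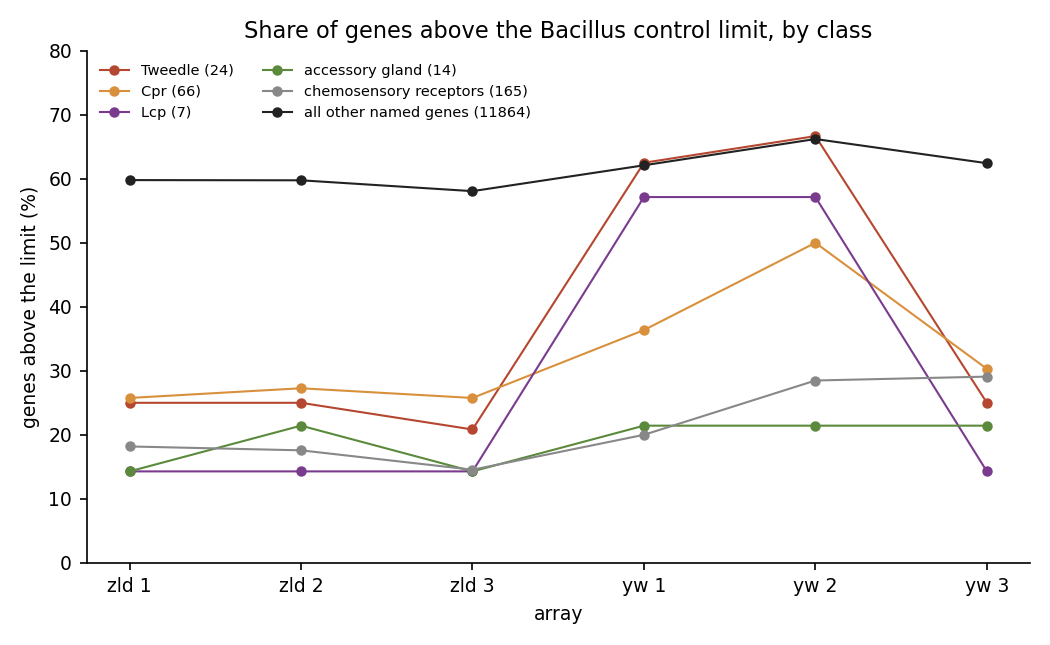
Percentage of genes above the Bacillus limit on each array, for 6 classes with their number of genes in brackets; lines join the values of a class and the arrays have no order. Tweedle genes reach 62.5% and 66.7% on yw replicates 1 and 2 but 20.8% to 25.0% on the other arrays, while all other named genes stay between 58.1% and 66.2%.

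A block of 14 genes was seen above the limit on yw replicates 1 and 2 alone. These genes were 11.9% of the set, whereas 1.12% of all probe sets had this pattern. It was also held by 2 of 17 chitin synthesis and assembly genes (11.8%), 1 of 8 apical ZP-domain matrix genes (12.5%), 1 of 11 tanning and pigment genes (9.09%), 3 of 6 muscle markers and 4 of 165 chemosensory receptor genes (2.42%). They were the Tweedle genes TwdlM, TwdlL, TwdlN, TwdlD, TwdlF, TwdlB, TwdlW and TwdlG, the larval cuticle genes Lcp65Ag3, Lcp65Ac and Lcp65Af, and Cpr51A, Cpr64Ad and Cpr78Cc. By family this was 8 of 24 Tweedle, 3 of 7 Lcp and 3 of 66 Cpr genes, and 0 of the 14 accessory gland genes. On the other 4 arrays none of these 14 signals exceeded 16.3, and on yw replicates 1 and 2 they lay between 20.3 and 260. The signal was higher on yw replicate 2 than on yw replicate 1 for 12 of the 14, with a median ratio of 1.99 and a range of 0.791 to 4.37.

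TwdlM had signals of 4.4, 4.2 and 3.4 in zld embryos, against 113.7, 260 and 5.6 in yw embryos. Yw replicate 3 lay beside the zld arrays, and the other yw arrays were far above them. The fitted log2 difference, zld minus yw on the log2(signal + 16) scale, was -2.20 (SE 0.786, limma adjusted p = 0.237). Lcp65Ag3, which encodes a larval cuticle protein, had 0.8, 1.2 and 0.5 in zld embryos and 196.8, 170.2 and 0.7 in yw embryos. Its difference of -2.37 (SE 0.856, limma adjusted p = 0.239) was the largest of the set in size. In that gene yw replicate 3 fell inside the range of the zld arrays, so the groups overlapped.

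TwdlN had 1.4, 3.6 and 2.8 in zld embryos, against 62.2, 116.3 and 9.6 in yw embryos, and its groups did not overlap. Its difference was -1.79 (SE 0.518, limma adjusted p = 0.149). TwdlL had 8.4, 4.4 and 12.3 in zld embryos and 64.5, 140.5 and 7.3 in yw embryos. Here yw replicate 3 again lay among the zld values. TwdlD, the founding gene of the family, had 2.7, 4.2 and 7.5 in zld embryos, against 43.9, 90.8 and 2.9 in yw embryos. TwdlF had 7.4, 3.2 and 3.8 in zld embryos, against 38.2, 92.7 and 3.4 in yw embryos. For these last 3 genes the log2 differences were -1.46 for TwdlL, -1.26 for TwdlD and -1.23 for TwdlF, with limma adjusted p-values of 0.297, 0.322 and 0.324.

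The block held 3 of the 66 Cpr genes. Cpr64Ad had 7, 11 and 6.2 in zld embryos and 95.5, 143.5 and 9.4 in yw embryos (log2 difference -1.68, SE 0.599, limma adjusted p = 0.236). Cpr51A had 13.2, 13.3 and 16.3 in zld embryos, against 64.6, 153.4 and 12.6 in yw embryos (log2 difference -1.27, SE 0.552, limma adjusted p = 0.324). In both, yw replicate 3 was within or beside the zld range. Cpr78Cc had 2.1, 6.2 and 2 in zld embryos and 34.5, 42.1 and 9.5 in yw embryos, and its 3 yw arrays were all above the zld arrays.

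Because the zld signals of these genes were at background, a fold can only be a bound. It was taken as the mean of all 3 yw arrays on the log2 scale over the mean of the higher of 18.13 and the gene's own signal on the zld arrays, with only yw replicates 1 and 2 measuring the gene above the limit. For yw over zld embryos this bound was 3.03-fold for TwdlM, 2.79-fold for Cpr64Ad and 2.76-fold for Cpr51A. It was 2.27-fold for TwdlN and 2.23-fold for TwdlL. These genes were taken for their high signals on yw replicates 1 and 2, so that choice partly sets the bound. The yw replicate 3 signals in the mean were themselves under the limit, so the bound does not hold for every yw array. With yw replicate 3 as the only control, the log2 difference was -0.11 for TwdlM, -0.083 for Cpr64Ad and 0.080 for Cpr51A. It was -0.46 for TwdlN and 0.052 for TwdlL. The bound for Lcp65Ag3 was at least 1.58-fold, since yw replicate 3 with its signal of 0.7 enters the mean. None of these differences passed the test with all 6 arrays.

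**Figure D3:**
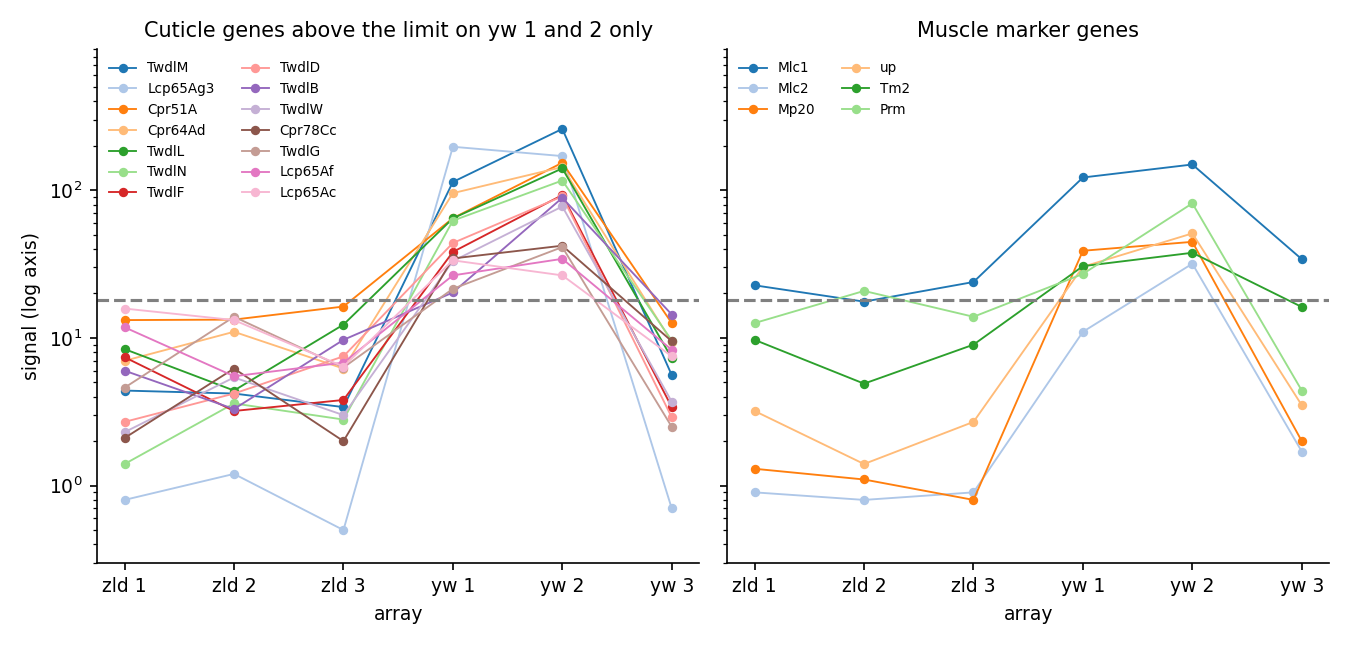
Signals on each array, on a log axis, of the 14 cuticle genes above the Bacillus limit (dashed) on yw replicates 1 and 2 only (left) and of the 6 muscle marker genes (right); lines join the values of a gene and the arrays have no order. The cuticle genes lie at or under 16.3 on the zld arrays and yw replicate 3, and all 6 muscle genes are highest on yw replicate 2.

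Leaving out arrays changed the calls. Without yw replicate 3, limma called 10 genes of the set lower in zld embryos at an adjusted p under 0.05, against 1.13% of all probe sets, with log2 differences of -3.56 to -1.49. They were TwdlM, TwdlL, TwdlN, TwdlD, TwdlF, TwdlW, Lcp65Ag3, Cpr51A, Cpr64Ad and Cpr78Cc. With yw replicate 3 as the only control array no gene of the set was called, and the log2 difference was 0.011 for Lcp65Ag3, 0.052 for TwdlL, 0.095 for TwdlF, 0.13 for TwdlD and 0.080 for Cpr51A. The block was defined from these same signals, so both outcomes describe it and support nothing further.

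Markers of older embryonic muscle moved with the block. Of 9 marker genes 6 had a probe set with their symbol alone, and their summed signal was 50.4, 46.6 and 51.2 in zld embryos, against 259.8, 396 and 61.9 in yw embryos. The number above the limit was 1 on each zld array, against 5, 6 and 1 on the yw arrays. Mlc1, a myosin light chain gene, had 22.7, 17.6 and 23.9 in zld embryos and 121.9, 149.3 and 34.1 in yw embryos (log2 difference -1.49, limma adjusted p = 0.137). The part of these cells in the cuticle signals was not tested. Trachea and glia markers were measured by 3 genes whose summed signal was 22.6, 27.4 and 16.5 in zld embryos and 21.3, 39.6 and 36.5 in yw embryos, so that yw replicate 1 was not above the zld arrays. Repo, the glial factor, had the largest difference of these, -0.36 (limma adjusted p = 0.369).

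Eggshell and yolk protein markers did not set yw replicates 1 and 2 apart from yw replicate 3. The 11 measured eggshell genes summed to 171, 167 and 156 in zld embryos and 205, 170 and 190 in yw embryos, and Cp38 had the largest difference, -0.35. The 3 yolk protein genes summed to 43.5, 25.8 and 12.1 in zld embryos and 53.9, 27.3 and 29.4 in yw embryos, with Yp1 at -0.39 (limma adjusted p = 0.662). All 5 maternal egg RNAs were above the limit on all 6 arrays, and alphaTub67C, the maternal tubulin gene, had a difference of 0.65 (limma adjusted p = 0.099).

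A further 19 genes were above the limit on all 6 arrays, 17 of them from the cuticle families. Their log2 differences ran from -1.11 to 0.08 with a median of -0.26, and 6 had groups that did not overlap, all lower in zld embryos, where 13.6% of all probe sets did so. Cpr64Ab had 57, 56.7 and 76.7 in zld embryos, against 79.4, 115.7 and 86.3 in yw embryos. All zld arrays were below all yw arrays, by a log2 difference of -0.46 (SE 0.178, limma adjusted p = 0.268). Its neighbour Cpr64Ad was in the block described above, while Cpr64Aa and Cpr64Ac, which lie between and beside them, were under the limit on all 6 arrays.

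Cpr65Ea had the largest difference in size among the genes seen on all arrays. Its signals were 25, 24.6 and 24.3 in zld embryos, against 68, 139.6 and 35.6 in yw embryos (log2 difference -1.11, SE 0.361, limma adjusted p = 0.196). The zld arrays agree closely, and the yw arrays again differ among themselves, with replicate 2 the highest. Lcp65Aa had 59.3, 68.6 and 39.6 in zld embryos and 67.3, 123.7 and 100.9 in yw embryos. The groups overlapped slightly (log2 difference -0.65, limma adjusted p = 0.244), and a second, dimmer probe set of the gene stayed under the limit except at 18.7 on zld replicate 1.

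Other Tweedle genes seen on all 6 arrays had small differences between the groups. TwdlC had 59.5, 75.4 and 75.7 in zld embryos, against 79.7, 81.3 and 67 in yw embryos, a log2 difference of -0.10 (SE 0.151) that was 0.061 after median centring and 0.049 with yw replicate 3 as the only control. TwdlK had 46.1, 73.6 and 55.4 in zld embryos and 92.4, 40.6 and 58 in yw embryos, and its difference of -0.06 was 0.093 after median centring and 0.045 after quantile normalization. TwdlH had 58.8, 73.2 and 62.4 in zld embryos, against 60, 105 and 83.7 in yw embryos. In all 3 genes the groups overlapped. TwdlY was a little higher in every yw array, with 29.7, 38.1 and 25.4 in zld embryos and 44.9, 59.2 and 40.9 in yw embryos (log2 difference -0.45, limma adjusted p = 0.341).

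Among the remaining genes seen on all arrays, Cpr47Eg had 39.5, 49.8 and 26.9 in zld embryos and 92.2, 59.9 and 29.5 in yw embryos, and Cpr67Fa1 had 44.4, 41.2 and 24.1 in zld embryos and 48.1, 54.2 and 36.8 in yw embryos. In both genes the ranges overlapped. The adult cuticle gene Acp65Aa, which lies beside Lcp65Aa, had 29.9, 21.6 and 28.6 in zld embryos and 22.2, 29.4 and 24.4 in yw embryos (log2 difference 0.05, limma adjusted p = 0.93).

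Neighbouring genes of a family shared a pattern in some places and not in others. In the run of 13 Tweedle genes on chromosome arm 3R, 12 were measured. TwdlM, TwdlB, TwdlL, TwdlN and TwdlD were above the limit on yw replicates 1 and 2 only, TwdlP, TwdlK and TwdlH on all 6 arrays, and TwdlO, TwdlR, TwdlS and TwdlQ on none. TwdlB and TwdlL are neighbours with the same pattern, as are TwdlR and TwdlS, whereas TwdlN, seen on yw replicates 1 and 2, lies next to TwdlH, seen on every array. On chromosome arm 3L a run of 19 genes holds the Lcp65A genes, 11 of them measured. Lcp65Ag3, Lcp65Af and Lcp65Ac were in the block, Lcp65Aa and Acp65Aa were above the limit on all 6 arrays, and 5 genes, among them Lcp65Ae and Lcp65Ad, were above it on none. The close relatives Lcp65Ag1 and Lcp65Ag2 had no probe set with a single symbol, and cross-hybridisation to the Lcp65Ag3 probe set was not tested.

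**Figure D4:**
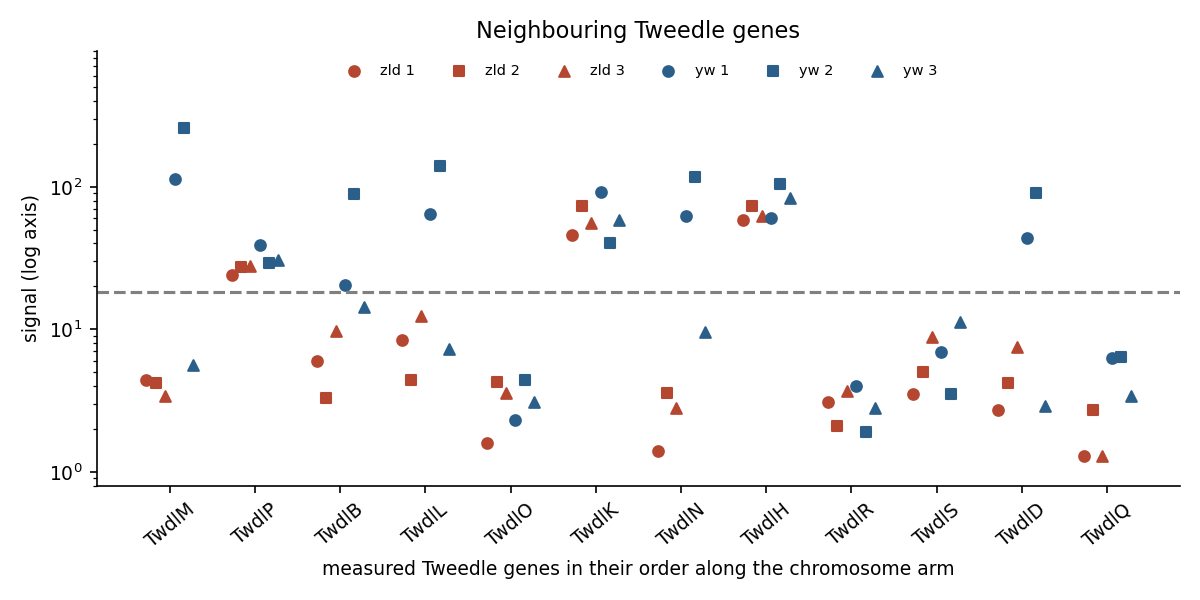
Signals, on a log axis, of the 12 measured Tweedle genes of the run on chromosome arm 3R, in their RefSeq order, with zld arrays in red, yw arrays in blue and the Bacillus limit dashed. TwdlM, TwdlB, TwdlL, TwdlN and TwdlD stand above the limit on yw replicates 1 and 2 only, between genes that are above it on every array or on none.

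Across the set, 0 of 118 genes were called lower and 0 called higher in zld embryos by limma at an adjusted p under 0.05, where 0.778% of all probe sets were called lower and 0.863% higher. Before adjustment, 23 genes were lower with p under 0.05, against 8.67% of all probe sets, and 1 was higher, against 6.69%. Genes of the block were among the 23, TwdlM, Lcp65Ag3 and Cpr64Ad included. Median centring gave 15 lower and 6 higher. The lower genes numbered 12 without yw replicate 2 and 32 without yw replicate 3. Shares of all probe sets before adjustment were not taken under these settings, so these counts cannot be read as changes of the set. Adjusted calls over all probe sets moved too. They were 127 lower and 552 higher after median centring, against 146 and 162 without it. The lower calls were 90 without yw replicate 2 and 213 without yw replicate 3. Of the set, the methods' t-test after adjustment also called 0 in each direction, but it called 0% of all probe sets lower and 0.0107% higher. Before adjustment it gave 4 lower, against 7.91% of all probe sets, and 0 higher, against 5.36%. The zld arrays were all below the yw arrays for 23 genes (19.5% of the set, against 13.6% of all probe sets) and all above for 1 gene (against 8.11%), the accessory gland gene Acp29AB, which was under the limit on every array.

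The fitted difference was below 0 for 95 of the 118 genes, with a median of -0.15 against -0.05 over all probe sets. This lean depends on the scaling of the arrays. Median centring moved the median of all probe sets by 0.16, left 58 of the 118 differences below 0 and brought the median of the set to 0.0036. By family and without median centring, the median was -0.37 for Tweedle genes (23 of 24 below 0) and -0.42 for Lcp genes (6 of 7). It was -0.14 for Cpr genes (55 of 66) and 0.00 for the accessory gland genes (7 of 14). The block high on yw replicates 1 and 2 only enters these medians, with 8 Tweedle, 3 Lcp, 3 Cpr and 0 accessory gland genes.

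**Figure D5:**
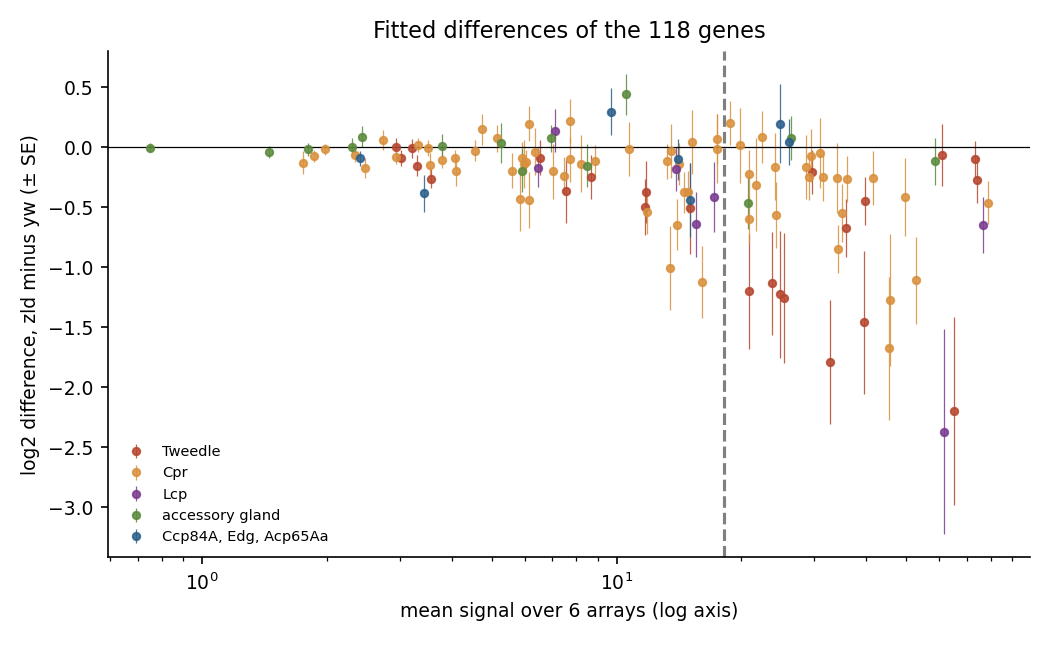
Fitted log2 difference, zld minus yw, of each of the 118 genes with its SE (vertical bars, n = 3 arrays per group), against the mean signal over 6 arrays on a log axis; the dashed line is the Bacillus limit. The lowest values, -2.37 for Lcp65Ag3 and -2.20 for TwdlM, also have the widest errors.

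Cpr66Cb came nearest to a call. Its signals were 23.8, 18 and 17.5 in zld embryos, against 44.4, 41.4 and 60.2 in yw embryos. Unlike the block above, it was high on all 3 yw arrays, replicate 3 included, and the groups did not overlap. The log2 difference was -0.85 (SE 0.201, limma adjusted p = 0.0942), and the gene was called when low signals were left out (adjusted p = 0.0256) or without the trend in limma (adjusted p = 0.046). Those 2 settings called 264 of 9386 and 138 of 18769 probe sets lower. Cpr62Bc was the only gene above the limit on exactly the 3 yw arrays, with 14.2, 14.3 and 11 in zld embryos and 25.7, 37.7 and 22.6 in yw embryos. Against the limit of 18.13 its bound for yw over zld embryos was 1.54-fold, which its choice by this pattern partly sets. The difference was not called (log2 difference -0.60, limma adjusted p = 0.192).

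Signals above the limit on a single array were found for 12 genes, 7 of them on yw replicate 2 and 3 on yw replicate 1. Cpr67Fa2 had the highest of these, with 2.5, 1.8 and 2.2 in zld embryos and 15.6, 52 and 6.6 in yw embryos. Ccp84Ac reached 40.3 on yw replicate 1 but 15.6 and 6.5 on yw replicates 2 and 3, against 12.4, 7 and 8.5 in zld embryos. Edg91 was the only gene above the limit on a single zld array, with 11.3, 5.3 and 21.5 in zld embryos, against 6.9, 7.3 and 6 in yw embryos. Edg78E, a pupal cuticle gene, passed the limit narrowly on yw replicate 3, with 17, 9.4 and 12.8 in zld embryos and 11.7, 15.4 and 18.3 in yw embryos. Ccp84Ae varied within both groups, with 41.4, 12.6 and 29.1 in zld embryos and 9.7, 24.2 and 31.5 in yw embryos (log2 difference 0.20, limma adjusted p = 0.805).

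Another 21 genes were above the limit on 2 to 5 arrays in other combinations. Cpr100A, Cpr11A and Cpr72Ea were above it on yw replicates 2 and 3 only, and the signals of Cpr11A were 3.2, 12.7 and 6.2 in zld embryos and 14, 28.4 and 19.2 in yw embryos. Its groups did not overlap (log2 difference -0.65, limma adjusted p = 0.198). TwdlT was above the limit on every array but zld replicate 3, with 29.9, 27 and 14.7 in zld embryos, against 41, 63.5 and 38.3 in yw embryos (log2 difference -0.67, limma adjusted p = 0.242). Cpr65Eb, the neighbour of Cpr65Ea, had 20.6, 11.9 and 15 in zld embryos and 46.2, 35.8 and 15.7 in yw embryos. Its 2 highest signals were again those of yw replicates 1 and 2, and yw replicate 3 lay among the zld arrays.

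The 14 accessory gland genes had no gene in the block and a median difference near 0. They were above the limit 2, 3 and 2 times in zld embryos and 3 times on each yw array. Acp95EF had 50.8, 51.7 and 62.6 in zld embryos, against 44.5, 74.4 and 67 in yw embryos. Acp36DE, a seminal protein needed for sperm storage, had 27.9, 31.7 and 23.2 in zld embryos and 24.6, 27.1 and 23.9 in yw embryos. In both genes the groups overlapped.

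Other genes of cuticle building were measured alongside, and limma called 0 of them in either direction, against 0.778% of all probe sets lower and 0.863% higher. Of 17 chitin synthesis and assembly genes, 8, 9 and 8 were above the limit in zld embryos, against 10, 13 and 8 in yw embryos, and 1 was lower and 1 higher before adjustment, at p under 0.05. For these lists the shares of all probe sets before adjustment are 8.67% lower and 6.69% higher, and counts of 0 or 1 in lists of 8 to 17 genes are too small to set apart from these. Gasp, a chitin-binding protein of the tracheal lining, had 32, 28.5 and 35.7 in zld embryos and 87.8, 185.8 and 19.1 in yw embryos, with yw replicate 3 below the zld arrays. The chitin deacetylase gene serp had 3.1, 12.7 and 2.8 in zld embryos and 14.1, 68.8 and 5.2 in yw embryos. Cht2, a chitinase gene, ran the other way, with 315.3, 246.1 and 229.9 in zld embryos and 161.7, 93.7 and 131.1 in yw embryos (log2 difference 0.97, limma adjusted p = 0.054). It was called under 6 of the 17 alternatives, and its adjusted p ranged from 0.0185 after median centring to 0.269 by the methods' t-test. Median centring called 552 of 18769 probe sets higher, against 162 without it.

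The 11 tanning and pigment genes had a median log2 difference of 0.01 and 0 of them had an unadjusted p under 0.05, and the ebony gene e, which conjugates dopamine, had the largest, -0.31 (limma adjusted p = 0.57). The 13 epidermal and moulting regulators had a median of -0.04, with 1 lower and 1 higher before adjustment. Broad (br), an ecdysone-response factor, had 103.4, 35.8 and 35 in zld embryos, against 5.6, 14.7 and 21 in yw embryos (log2 difference 1.23, limma adjusted p = 0.162). Grainy head (grh), which activates epidermal barrier genes, had 37, 35.2 and 41.3 in zld embryos and 45.6, 107.1 and 33.4 in yw embryos. The 8 apical ZP-domain matrix genes had a median of 0.08 with 1 higher before adjustment, and tyn had the largest difference, 0.71 (limma adjusted p = 0.16).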

How the data were processed

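Total RNA of 3 zld germ-line clone and 3 yw samples was measured on 6 arrays. The deposited values are linear array intensity signals that the authors processed with the GeneChip Operating Software, per the labels' protocols; no version is given in the sources used here. From the values, the mean after trimming 2% at each end was 150.0 on every array, so a global scaling is in the signals. Of 18769 probe sets, 13647 had 1 platform symbol (13544 found in the RefSeq table of assembly GCF_000001215.4), 402 several and 4720 none. The brightest probe set stood for a gene. None of the 118 probe sets used had a suffix for shared targets.

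limma 3.58.1 (R 4.3.3; lmFit, eBayes with trend) was run on log2(signal + 16) over all probe sets, with group as the only term and Benjamini-Hochberg adjustment, and tested on simulated data. The pseudocount understates changes of dim genes. Shares and sums per array were compared with scipy 1.17.1, tables were made with pandas 2.3.3 (Python 3.11.15), and matplotlib 3.10.9 drew the figures. Precision is limited by the number of arrays, 3 a group. The series text gives 3 replicate collections and the sample protocol duplicate ones, so p-values may cover only the spread between samples of shared collections.

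The symbol rule uses no measured value, but the members and the 9 gene lists (100 entries, 77 found) were chosen with earlier results of these data known. Named genes were zld, the 15 brightest members above the limit, the 8 brightest array exceptions, the brightest of each family, the 2 on each side of the limit and the largest difference of each list. Cpr66Cb, Cpr62Bc, Cpr11A, Cpr65Eb, TwdlT, Cpr78Cc, Cpr67Fa2, Ccp84Ac, Edg84A, Edg91, Acp29AB, Acp36DE, Gasp, serp and grh, and the other genes named by their pattern or place, were chosen after their values were seen. Settings varied were pseudocounts, filters, scalings, limits, tests and arrays left out.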

Additional observations from a re-analysis of the deposited data

How the results depend on the processing

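Signals near 18.13 cannot be told from background, which limits every statement on dim genes. The count of genes called lower in zld embryos, 0 with all arrays, was 1 with low signals left out (42 genes of the set tested), 1 without the trend in limma, and 0 to 10 as single arrays were left out, with 10 without yw replicate 3. It was 0 under the other alternatives, and the count called higher was 0 under all of them. Over all probe sets, 264 of 9386 were called lower with low signals left out, and 138 of 18769 without the trend. The median difference of the set, -0.15, was -0.38 with a pseudocount of 1, -0.37 with low signals left out, 0.0036 after median centring and -0.19 to -0.11 as single arrays were left out. The count above the limit, 29 in zld embryos and 52 in yw embryos, was 15 and 34 at the highest Bacillus signal and 22 and 24 with all 3 arrays of a group required. With each array's own limit on all 3 it was 26 in zld embryos and 21 in yw embryos, so the order of the groups turned. The yw count was 33 without yw replicates 1 and 2, and 45 to 54 as single arrays were left out; the zld count was then 29 to 30. Of the block of 14 genes on yw replicates 1 and 2, 10 kept this pattern with own limits and 13 after quantile normalization. At the highest Bacillus signal 10 of the 14 kept it, and Cpr65Eb, from outside the block, gained it. These other limits were chosen after seeing the data.

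Single differences turned sign as follows. Median centring gave 0.061 for TwdlC, 0.093 for TwdlK, 0.040 for Acp95EF, 0.055 for Edg78E and 0.15 for Cpr30B. Quantile normalization gave 0.045 for TwdlK, 0.022 for Edg78E and 0.14 for Cpr30B. Cpr30B was 0.11 with a pseudocount of 1 and 0.13 with array weights. Without yw replicates 1 and 2 the values were 0.049 for TwdlC, 0.011 for Lcp65Ag3, 0.24 for Cpr47Eg, 0.080 for Cpr51A, 0.052 for TwdlL, 0.095 for TwdlF, 0.13 for TwdlD, -0.18 for Ccp84Ae and 0.49 for Cpr30B. As single arrays were left out, TwdlK ran from -0.28 to 0.18, Ccp84Ae from -0.057 to 0.47, Acp65Aa from -0.0098 to 0.13, Cpr35B from -0.23 to 0.30, Cpr30B from -0.26 to 0.32 and Cpr78Cb from -0.12 to 0.22. Over all probe sets, median centring called 127 lower and 552 higher, against 146 and 162. The cause of these changes was not tested.

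The replicate numbers gave no clear pairing of the samples. Deviations of same-numbered arrays correlated at 0.147, -0.002 and -0.035, against -0.118 to 0.126 for the others. The value of 0.147, for replicates 1, was the highest, and whether any arrays shared a collection cannot be told from these values. The replicate block called 0 genes of the set lower and 0 higher, and 76 probe sets lower and 75 higher over all.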
